A study of Arabidopsis thaliana with 12 samples.

Results

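PRK (AT1G32060) and SBPASE (AT3G55800) are the Arabidopsis thaliana genes for phosphoribulokinase and sedoheptulose-bisphosphatase, enzymes of the regeneration phase of the Calvin cycle. They were taken as the array features whose platform annotation names exactly 1 gene, that gene being PRK or SBPASE. This gave 2 features, 1 per gene, out of 692 single-gene features and 3439 features in all, and 0 of the features annotated with several genes held either gene. Total RNA was measured on a 1-channel array in 12 samples of the ecotype Wassilevskija. The 6 kn09 samples came from a mutant described in the labels as oversensitive to proline, with proline breakdown in the mitochondrion blocked, whose roots had been exposed to MS medium with 100 mM proline over 48 h. The 6 wild type (WT) samples had roots on MS medium with 100 mM glucose over the same 48 h. Mutant genotype and proline went together, as did wild type genotype and glucose, so genotype and compound cannot be told apart in any difference given here. Neither the mutated gene, nor the organ that gave the RNA, nor whether the samples of a group were separate plants is stated in the labels, and p-values measure only how much these samples vary, which may be technical variation.

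The Calvin cycle fixes carbon dioxide in the chloroplast stroma in 3 phases: carboxylation by Rubisco, reduction to triose phosphate, and regeneration of the acceptor sugar. SBPASE dephosphorylates sedoheptulose bisphosphate, which commits carbon to regeneration, and PRK makes ribulose bisphosphate, the substrate of Rubisco, in the closing step. Both enzymes are switched on in the light when thioredoxins reduce disulfide bonds in them, with electrons that reach the thioredoxins from ferredoxin through ferredoxin-thioredoxin reductase or from NADPH through NTRC. Their transcripts are typical of green tissue.

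The array values were intensities that the authors had scaled to an unnamed reference, between a floor of 0 and a ceiling of 100. The median intensity lay between 0.164 and 0.196 in the kn09 samples and between 0.137 and 0.224 in the WT samples. Between 317 and 475 features stood at 0 in a kn09 sample, and between 175 and 265 in a WT sample. Samples numbered 1 and 2, 3 and 4, and 5 and 6 within a group were more alike than other samples of the group: the mean rank correlation over all features was 0.869 within these pairs and 0.847 between them in kn09, and 0.919 within and 0.823 between in WT. The labels do not say what these pairs share. None of the 16 root marker genes listed had a single-gene feature, so the root label could not be checked, and in these bulk samples fewer cells of a type and less RNA per cell cannot be told apart.

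PRK fell in kn09 on proline, to 0.250 of its mean intensity in WT on glucose. The kn09 samples 1 to 6 had PRK intensities of 0.402, 0.254, 0.358, 0.511, 0.249 and 0.230. The WT samples 1 to 6 had PRK intensities of 1.07, 1.19, 1.88, 1.67, 1.09 and 1.12. The groups did not overlap: the brightest kn09 sample, number 4, stayed under the dimmest WT sample, number 1. Within WT, samples 3 and 4 were the bright ones, and the other 4 lay close together. The means were 0.334 ± 0.110 in kn09 and 1.34 ± 0.347 in WT (SD, n = 6 each).

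On the log2 scale, after quantile normalization between samples, the PRK difference (kn09 minus WT) was -2.05 ± 0.26 (SE), with a 95% interval from -2.62 to -1.48. In limma, with Benjamini-Hochberg adjustment over all 3439 features, the adjusted p was 0.000169. At an adjusted p of 0.05, 13.6% of all features were called lower in kn09, and all 6 kn09 values lay below all 6 WT values in 8.69% of features. A call in this direction was thus common on this array. The difference of PRK lay in its lower tail, with 6.14% of the features lower still. An exact permutation test of the normalized log2 values over all 924 ways of drawing 6 of the 12 samples gave PRK a two-sided p of 0.00216, the smallest that 6 samples against 6 allow.

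**Figure D1:**
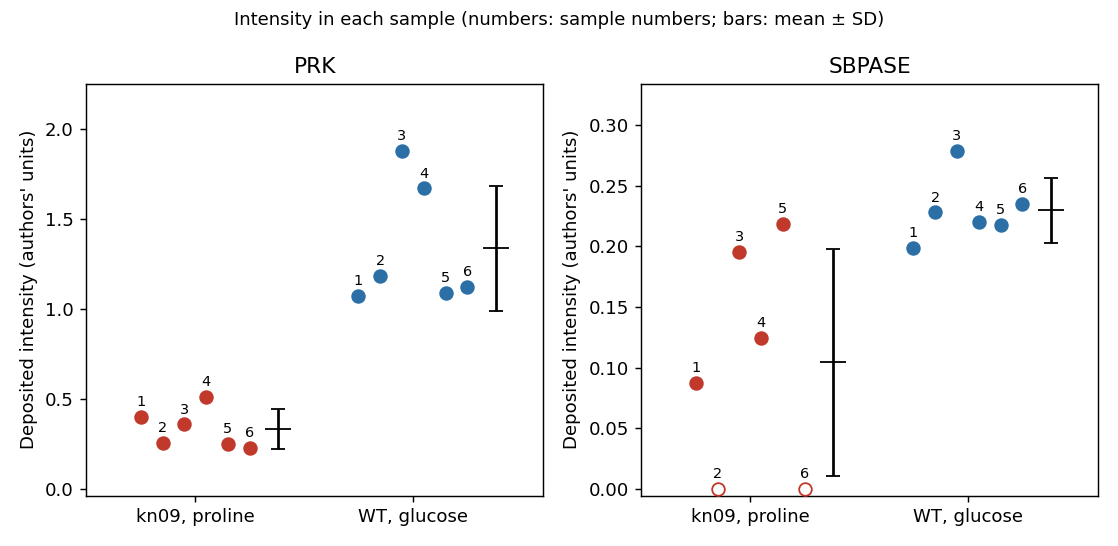
Deposited intensities (y axis, authors' units, linear) of PRK and SBPASE in the 6 kn09 samples on proline (red, left) and the 6 WT samples on glucose (blue, right), each point 1 sample with its number; open points are values at 0, and bars are the mean ± SD. PRK separates the groups, with kn09 up to 0.511 and WT from 1.07, whereas SBPASE runs from 0 to 0.219 in kn09 and from 0.199 to 0.279 in WT.

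Since the groups did not overlap, kn09 was bound to have the lower mean PRK intensity in each of the sample pairs, and only the size of the ratio could vary. In samples 1 and 2 the mean PRK intensity was 0.328 in kn09 and 1.13 in WT, a ratio of 0.291. In samples 3 and 4 it was 0.434 in kn09 and 1.77 in WT, a ratio of 0.245. In samples 5 and 6 it was 0.240 in kn09 and 1.11 in WT, a ratio of 0.217. With the pairs averaged to 3 values against 3, PRK passed with an adjusted p of 0.0415 in limma, where 3.4% of features were called lower. Fitted in limma as a random block, the pairs gave PRK an adjusted p of 0.000696, where 8.52% of features were called lower.

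SBPASE had lower deposited intensities in 5 of the 6 kn09 samples than in any WT sample, but did not pass the test across all features. On the normalized log2 values that were tested, 4 kn09 samples lay below the lowest WT sample. The kn09 samples 1 to 6 had SBPASE intensities of 0.0876, 0, 0.195, 0.124, 0.219 and 0. The WT samples 1 to 6 had SBPASE intensities of 0.199, 0.228, 0.279, 0.220, 0.218 and 0.235. In deposited intensity, sample 3 was the brightest WT sample for SBPASE, as it was for PRK. After normalization the brightest WT sample for SBPASE was number 6, at -1.79 on the log2 scale, with sample 3 at -2.12. The groups overlapped, because kn09 sample 5 reached 0.219 and so exceeded the intensities of WT samples 1 and 5. The deposited intensity of kn09 sample 3 was just below the lowest WT value. After normalization kn09 samples 3 and 5, both at -2.27 on the log2 scale, lay above WT sample 1 at -2.51. The means were 0.104 ± 0.0936 in kn09 and 0.230 ± 0.0268 in WT (SD, n = 6 each), a ratio of 0.454.

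The kn09 samples varied more for SBPASE than for PRK. The coefficient of variation of SBPASE was 89.7% in kn09 and 11.7% in WT, and that of PRK was 33.0% in kn09 and 26.0% in WT. SBPASE was a feature of middle brightness, brighter than 48.4% to 62.8% of the features in the WT samples, whereas PRK was brighter than 87.4% to 91.9% there. These ranks describe the signal and not the abundance of the transcripts, since features are not calibrated against each other.

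The size of the SBPASE difference rests on the 2 zeros, in kn09 samples 2 and 6. With zeros placed at the common floor of 0.00307, the log2 difference was -2.37 ± 1.14 (SE), with a 95% interval from -4.85 to 0.12 and an adjusted p of 0.146 in limma. With zeros as missing values the log2 difference was -0.64, with an adjusted p of 0.123, and with a pseudocount of 0.05 it was -1.04, with an adjusted p of 0.0653. Leaving out kn09 sample 2 gave -1.59 and leaving out kn09 sample 6 gave -1.58. Leaving out both, an alternative added after the values were seen, gave -0.46 with an adjusted p of 0.247. The direction was the same in each case, and SBPASE passed the adjusted threshold in 0 of 25 alternative limma fits, with adjusted p from 0.0653 to 0.390.

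Taken as a single value, outside the adjustment over the array, SBPASE gave different p-values in different tests. The unadjusted p in limma was 0.0601 in the main fit, 0.181 with the pairs as a random block and 0.0354 on the pair means. The exact permutation test gave a two-sided p of 0.0260 on the normalized log2 values. On the deposited intensities, a test added after the values were seen, the exact two-sided p was 0.00649. The permutation tests treat the 12 samples as exchangeable and take no account of the pairs, and none of these p-values is adjusted for the choice of SBPASE among 3439 features.

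The zeros of SBPASE stood beside measurable values in the paired samples. In kn09 sample 5 SBPASE had an intensity of 0.219, and in kn09 sample 6 it was at 0. Of the 400 features in kn09 sample 5 with an intensity between 0.8 and 1.25 times that of SBPASE, 5 were at 0 in kn09 sample 6, or 1.25%. In kn09 sample 1 SBPASE had 0.0876, and of the 294 features with a like intensity there, 48 were at 0 in kn09 sample 2, or 16.3%. A zero in sample 6 was thus rare for a feature of this brightness, and a zero in sample 2 less so. Of the 1243 features with a zero in any sample, 12 had zeros in kn09 samples 2 and 6 alone, SBPASE among them.

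By sample pairs, the mean SBPASE intensity in samples 1 and 2 was 0.0438 in kn09 and 0.214 in WT, a ratio of 0.205. In samples 3 and 4, where kn09 had no zero, it was 0.160 in kn09 and 0.250 in WT, a ratio of 0.640. In samples 5 and 6 it was 0.109 in kn09 and 0.226 in WT, a ratio of 0.483. The ratio of deposited intensities was therefore below 1 in each pair but spread more widely than for PRK. On the normalized log2 values the difference was -0.28 in samples 3 and 4. It was -3.33 in samples 1 and 2 and -3.49 in samples 5 and 6, where kn09 zeros stood at the floor. On the pair means SBPASE had an adjusted p of 0.154 in limma, and with the pairs as a random block 0.390.

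**Figure D2:**
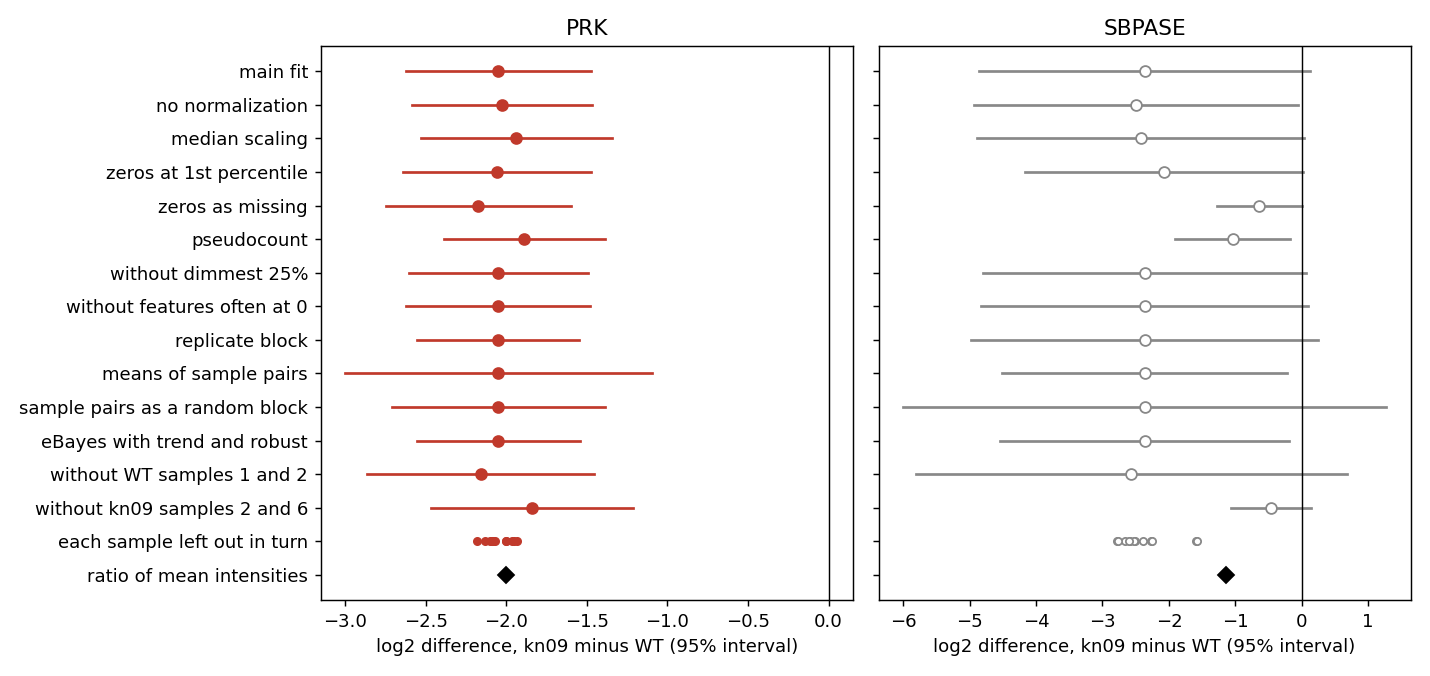
Log2 difference, kn09 minus WT (x axis), of PRK and SBPASE under each way of processing (rows); circles with lines are limma estimates with 95% intervals, filled red where the adjusted p was under 0.05 and open grey otherwise, and black diamonds are log2 ratios of mean intensities, tested only by permutation. PRK stays between -2.18 and -1.84 in the limma fits, all filled, whereas SBPASE ranges from -2.77 to -0.46, all open.

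Whether the transcripts changed by different amounts was tested on the difference between the log2 values of PRK and SBPASE within each sample. This difference averaged 2.92 ± 2.71 in kn09 and 2.61 ± 0.51 in WT (SD, n = 6 each), so kn09 minus WT was 0.32, with an exact two-sided permutation p of 0.742. The sign depended on the zeros: with zeros as missing values kn09 minus WT was -1.32, and without kn09 samples 2 and 6, an alternative added after the values were seen, it was -1.38. Both settings take away the kn09 samples with the lowest SBPASE values, so these values carry no test of a difference between the genes. Among kn09 samples, the 2 lowest PRK values were in samples 5 and 6, while the deposited intensity of SBPASE was highest in sample 5. After normalization SBPASE stood at -2.27 in both samples 3 and 5. Its zeros were in samples 2 and 6, where PRK had low intensities of 0.254 and 0.230. The genes thus shared the order of the kn09 samples only in part.

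The remaining Calvin cycle enzymes could not be followed, since PRK and SBPASE were the only 2 measured of 23 genes on the carboxylation, reduction and regeneration lists. Of these 2, 1 fell and 0 rose, where 13.6% of all features were called lower and 14.1% higher in kn09. Their median log2 difference was -2.21, against -0.08 over all features. That median is only the midpoint of PRK at -2.05 and SBPASE at -2.37, and the SBPASE value rests on its zeros. It therefore says nothing of the cycle as a whole. Of 17 genes for partner proteins and redox regulators of the cycle, 2 were measured. One was AT2G04700, listed as FTRB, the catalytic subunit of ferredoxin-thioredoxin reductase; the other was NTRC (AT2G41680), the plastid NADPH-dependent thioredoxin reductase. Of these, 1 fell and 0 rose, against the same 13.6% and 14.1% of all features, and the call of FTRB ended in 13 of 25 alternative fits.

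FTRB, on the route that activates both enzymes in the light, fell in kn09 on proline. In the kn09 samples 1 to 6 its intensities were 0.542, 0.366, 0.410, 0.436, 0.544 and 0.533. In the WT samples 1 to 6 they were 0.535, 0.496, 1.07, 1.12, 0.824 and 0.827. WT samples 1 and 2 lay within the range of the kn09 samples, and the other 4 WT samples lay above all of them. The log2 difference was -0.74 ± 0.23 (SE), and limma gave an adjusted p of 0.0307. Without WT samples 1 and 2 it was -1.05, with an adjusted p of 0.000888. The call ended on the pair means, with an adjusted p of 0.243, with the random block, at 0.0686, with the replicate block, at 0.0659, and with median scaling, at 0.113. It also ended without any 1 of kn09 samples 2 to 5 or WT samples 3 to 6, with adjusted p up to 0.0656, and at 0.103 without both kn09 samples 2 and 6.

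NTRC did not pass. In the kn09 samples 1 to 6 its intensities were 0.0469, 0.176, 0.386, 0.492, 0.554 and 0.493. In the WT samples 1 to 6 they were 0.0924, 0.191, 0.368, 0.357, 0.189 and 0.183. In kn09, 4 of the 6 values lay above the highest WT value and 1 lay below the lowest, and the lowest value of each group was in sample 1. The log2 difference was 0.56 ± 0.55 (SE), with a 95% interval from -0.64 to 1.76 and an adjusted p of 0.489 in limma, or 0.0955 with the replicate block, so a difference opposite in sign to that of PRK was not established, nor was the absence of a change.

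**Figure D3:**
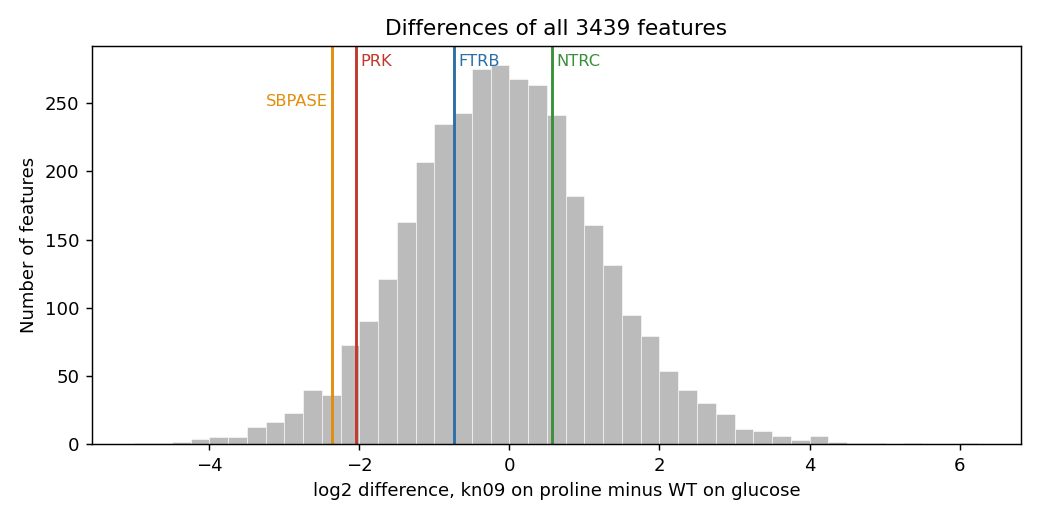
Number of features (y axis) by log2 difference, kn09 minus WT (x axis), in steps of 0.25, for all 3439 features, with vertical lines at PRK, SBPASE, FTRB and NTRC. PRK at -2.05 and SBPASE at -2.37 lie in the lower tail, FTRB at -0.74 and NTRC at 0.56 within the bulk. The place of SBPASE rests on its zeros, and with zeros as missing values its difference was -0.64.

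Metabolism that exchanges carbon with the cycle was represented by 3 single genes. Of these, 0 passed, where 13.6% of all features were called lower and 14.1% higher in kn09. For photorespiration, 1 of 14 genes was measured, PLGG1 (AT1G32080), the plastid transporter of glycolate and glycerate, whose difference was 0.77 ± 0.93 (SE) on the log2 scale, at an adjusted p of 0.578; its sign turned without WT sample 3, to -0.14. For starch and sucrose synthesis, 1 of 19 genes was measured, the sucrose-phosphate synthase gene SPS4 (AT4G10120), with intensities of 0.873 ± 0.169 in kn09 and 1.003 ± 0.173 in WT (SD, n = 6 each). Its log2 difference of -0.24 had a 95% interval from -0.59 to 0.12, so in the quantile normalized fit a fall as large as that of PRK lies outside the interval. For the oxidative pentose phosphate pathway, 1 of 17 genes was measured, AT1G12230, listed as the transaldolase TRA1, which had intensities of 0 to 0.332 in kn09 and 0 to 0.0886 in WT. Its log2 difference was 2.01 ± 1.10 (SE), at an adjusted p of 0.204, with 1 zero in kn09 and 2 in WT. The size depended on the zeros: it was 0.45 with zeros as missing values and 0.76 with a pseudocount.

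Of 33 genes of the light reactions, which supply the cycle with ATP and NADPH, 4 were measured; 3 fell and 1 rose, while 13.6% of all features were called lower and 14.1% higher in kn09. On the log2 scale the antenna gene LHB1B2 differed by -2.63 ± 0.22 (SE), the photosystem I gene PSAN by -2.42 ± 0.22 and the photosystem II gene PSBY by -1.15 ± 0.15, with adjusted p in limma of 7.65e-06, 1.22e-05 and 0.000202. All 6 kn09 values lay below all 6 WT values for each of these 3, as for PRK and for 8.69% of all features. PSBW, of photosystem II, rose by 0.92 ± 0.27 (SE) on that scale (adjusted p 0.0253 in limma), and it reached the ceiling in 1 kn09 sample, where its level is only a lower limit. The call of PSBW ended on the pair means, at 0.221, and in the fit with the replicate block, at 0.0902. It also ended when kn09 sample 3 or 4 or WT sample 3, 5 or 6 was left out, at 0.0515 to 0.0568; that of PSBY ended on the pair means, at 0.0661. The summed intensity of the 4 genes was 56.2 to at least 106 in kn09 and 70.5 to 84.5 in WT, and was carried by PSBW; without PSBW it was 6.18 to 9.59 in kn09 and 33.8 to 51.9 in WT. These sums join features that are not calibrated against each other, and 0 of their values were at 0. LHB1B2, PSAN and PSBY moved with PRK and PSBW moved the other way; their part in the fall of PRK was not tested.

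**Figure D4:**
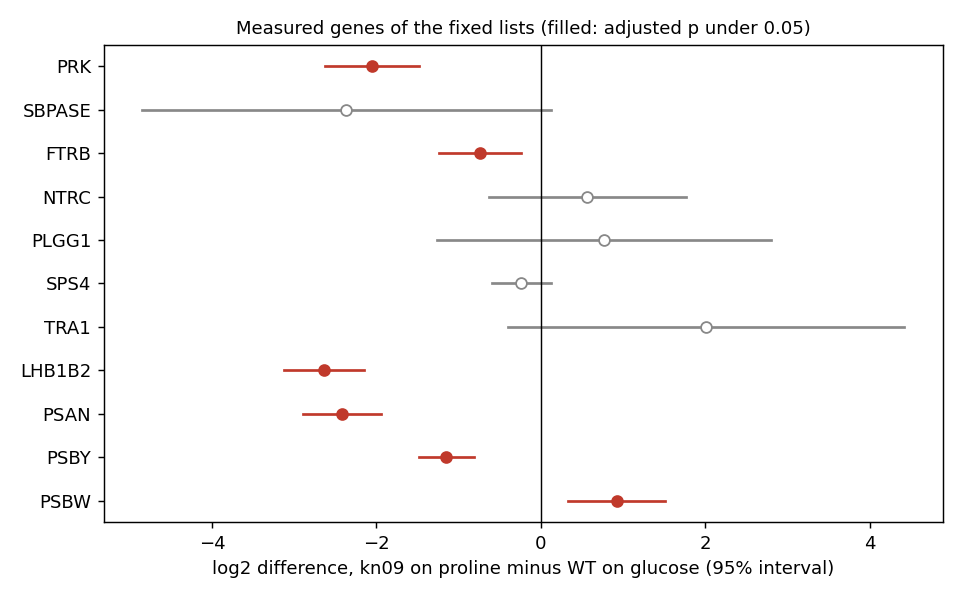
Log2 difference, kn09 minus WT (x axis), with 95% interval in limma for the 11 measured genes of the lists (rows), filled red where the adjusted p was under 0.05 and open grey otherwise. PRK at -2.05 lies next to LHB1B2 at -2.63 and PSAN at -2.42, and the interval of SBPASE, from -4.85 to 0.12, is the widest of the 11.

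The single-gene features with the profile most like that of PRK were sought by the root mean square difference of the normalized log2 values over the 12 samples, each gene centred on its own mean. The nearest 5 of 691 were AT2G40980, CUTA (AT2G33740), AT1G62250, AT1G68660 and AT2G04540, at distances of 0.34, 0.35, 0.36, 0.38 and 0.43, against a median distance of 1.59. The mean intensity of AT2G40980 was 0.905 ± 0.0902 in kn09 and 4.61 ± 0.509 in WT (SD, n = 6 each), and that of AT2G04540 was 0.349 ± 0.0858 in kn09 and 1.09 ± 0.182 in WT. The log2 differences of the 5 lay between -2.45 and -1.64; since the measure chooses genes with a difference like that of PRK, this is a description. SBPASE was 425th in nearness to PRK, at a distance of 1.79.

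For SBPASE the nearest 5 were AT1G48570, AT5G44150, AT1G50000, AT1G49870 and AT3G54680, at distances of 0.95, 1.09, 1.36, 1.36 and 1.42, against a median of 2.48. AT1G48570, AT5G44150 and AT1G50000 were at 0 in kn09 samples 2 and 6, as SBPASE was, and AT1G49870 and AT3G54680 had 1 zero in kn09, each in one of those samples. The likeness to SBPASE is thus set mostly by shared zeros. In the limma fit 0 of these 5 passed, with adjusted p from 0.105 to 0.368. Of all features, 13.6% were called lower and 14.1% higher in kn09. PRK was 25th in nearness to SBPASE.

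**Figure D5:**
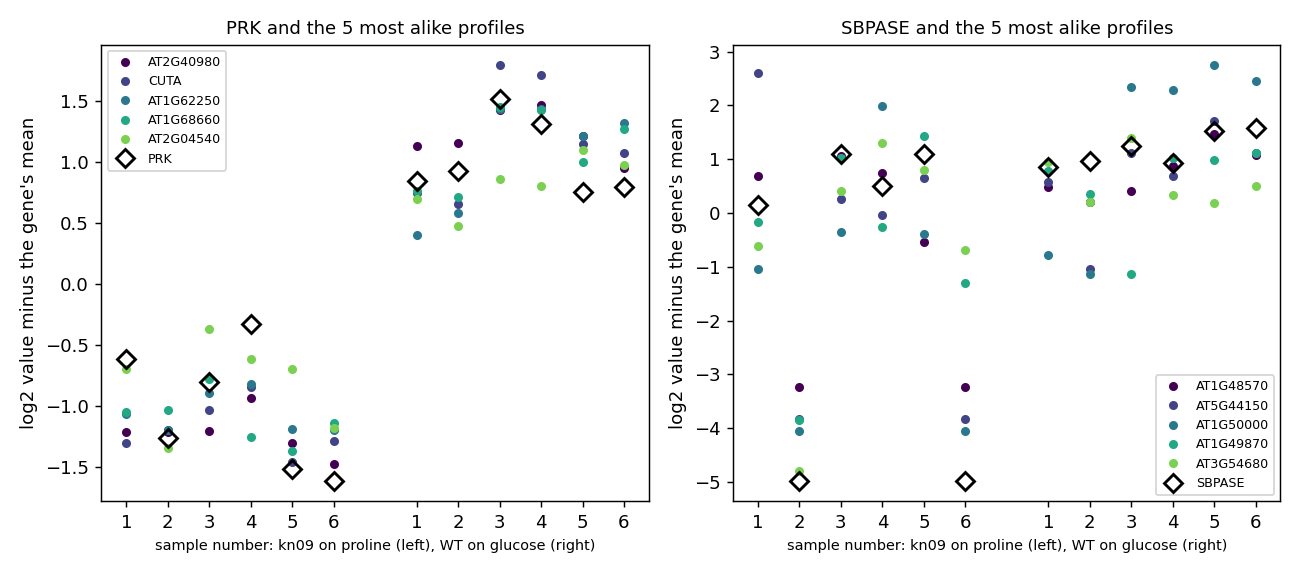
Normalized log2 values minus each gene's own mean (y axis) by sample number (x axis, 6 kn09 samples on proline left and 6 WT samples on glucose right) for PRK and SBPASE (black diamonds) and the 5 most alike single-gene features of each (coloured dots). The features most like PRK lie low in all 6 kn09 samples, whereas those most like SBPASE drop mainly in kn09 samples 2 and 6.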

How the data were processed

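The deposited table holds 1 intensity per feature and sample, which the authors had scaled to a reference not given in the sources used here; scanner, background correction, normalization and centring are likewise not given, and the values were taken as linear because none was negative and most lay near 0. Sample titles gave the groups and numbers. Gene names came from GEO's platform annotation, matched through Entrez identifiers to the TAIR10.1 table for 690 of 692 single-gene features; FTRB and TRA1 are names of the lists, not of these tables, and no coordinates are printed because the array table names no build. The number of 12 arrays limits the precision.

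Intensities were quantile normalized, raised to a common floor of 0.00307 (the highest normalized value that a deposited 0 took), and log2 transformed without a pseudocount. limma 3.58.1 under R 4.3.3 (lmFit, eBayes, two-sided, group as the only term) gave differences, SEs and Benjamini-Hochberg adjusted p over 3439 features. This fit was tested on simulated data with independent samples, so that test does not cover the likeness within sample pairs. Exact permutation tests were run on 3 values: PRK, SBPASE and their difference. Means and SDs are of deposited intensities, except those of the difference between PRK and SBPASE within samples, which are of normalized log2 values.

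The members and lists were chosen with earlier results of these data known. The genes named are the members, each list gene with a single-gene feature, and the 5 profiles most like each member. The alternatives covered normalization, treatment of zeros, filters on dim features, blocks, sample pairs, variance settings and samples left out. Same-numbered kn09 and WT samples were not treated as pairs in the main fit, although each correlated best with its own number. The replicate block among the alternatives takes these numbers into account.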

Additional observations from a re-analysis of the deposited data

Results flagged for a closer look

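Of 42 sets of 6 values, the 21 named genes in each group, 4 held a sample far from the others by Dixon's criterion, which chance gives in about 1 of 20 sets. None of the 4 sets was of PRK or SBPASE. TRA1 had an intensity of 0.332 in kn09 sample 2, above 0 to 0.0522 in the other kn09 samples. AT5G44150 had 0.241 in kn09 sample 1, above 0 to 0.0651 in the others, and AT1G50000 had 0.189 in kn09 sample 4, above 0 to 0.0352 in the others. PLGG1 had 0.0130 in WT sample 3, below 0.118 to 0.152 in the other WT samples.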

How the results depend on the processing

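PRK passed in all 25 alternative limma fits, with log2 differences from -2.18 to -1.84 and adjusted p from 3.40e-06 to 0.0415; leaving out 1 sample gave -2.18 to -1.93. SBPASE passed the adjusted threshold in 0 of these fits, and leaving out 1 sample gave -2.77 to -1.58. Without adjustment its p was under 0.05 in the exact permutation tests, at -2.37 on normalized values and at -1.14 as the log2 ratio of mean intensities. The unadjusted limma p was also under 0.05 in some fits, such as 0.0225 with a pseudocount and 0.0354 on the pair means. It was not in others, such as the main fit at 0.0601. Quantile normalization left the median log2 difference of all features at -0.08, no normalization at -0.34 and median scaling at -0.26. Relative to that median PRK differed by -1.97, -1.68 and -1.68, and SBPASE by -2.28, -2.15 and -2.16, in the same order of settings. The difference between PRK and SBPASE, 0.32, turned to -1.32 with zeros as missing, -0.85 with a pseudocount and -1.38 without kn09 samples 2 and 6, and ran from -0.40 to 0.81 with 1 sample left out, below 0 without kn09 sample 2 or 6. PLGG1 turned to -0.14 without WT sample 3 and ran up to 1.04 without WT sample 5, and AT5G44150 to 0.17 without kn09 samples 2 and 6. The turn of PLGG1 came when its WT sample far from the others, at an intensity of 0.0130, was left out. The other turns came in settings that treat the zeros otherwise or leave out samples that hold them. The causes of these turns were not tested.

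The count of features past the threshold was 952, 485 higher and 467 lower in kn09; it was 793 to 994 with 1 sample left out and 197 on the pair means, where 3 values stood against 3. The numbers in the titles were not used as pairs in the main fit. Correlations of deviations between same-numbered samples were low, from 0.0222 to 0.0981, although each of the 12 samples correlated best with its own number. With the replicate block 816 features passed, and the adjusted p was 0.00177 for PRK and 0.162 for SBPASE. The zeros limit what can be said of SBPASE: values at the floor have no order.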
